A study of Homo sapiens with 23 samples.

Results

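The epidermal kallikreins are secreted serine proteases of the outer epidermis, and the 10 genes KLK5, KLK6, KLK7, KLK8, KLK9, KLK10, KLK11, KLK12, KLK13 and KLK14 were taken by symbol from a table of 27589 genes. They lie side by side on the minus strand of chromosome 19, over 140.943 kb of hg38 from position 50943303 to position 51084245. RNA was measured by poly(A) RNA-seq in 23 flash frozen tumours of SCC-13, an established human line of cutaneous squamous cell carcinoma. The cells had been injected in Matrigel under the skin of NCG mice, a host strain that lacks functional lymphocytes and natural killer cells, and tumours were taken on day 26. The series concerns an isoform of human Flower (hFWE, gene symbol CACFD1) and cornification, the hardening of keratinocytes into the horny layer. Isoforms are not told apart, since each gene has 1 value.

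Wild-type (WT, labelled hFWE WT) tumours came from the lines 5B2, 6C9 and 6C10, with 4 tumours each and 12 in all. Knockout (KO, labelled hFWE KO) tumours came from the lines 2F7, with 3 tumours, and 2B8 and 1G10, with 4 each, 11 in all. Both groups were otherwise SCC-13 cells in the same host strain and carried no other stated allele or agent. The labels name the lines by code and do not say whether each is 1 clone or whether each tumour had its own mouse, so p-values measure only the spread between these tumours. Tumours are named below by genotype, line and specimen number. No line has both genotypes, and a difference of genotype therefore rests on 3 lines against 3.

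Kallikreins are made as inactive precursors in the granular layer, released into the spaces between the uppermost cells, and switched on there in a cascade of cleavages. KLK5 can activate itself and cuts the precursors of KLK7 and KLK14. The active proteases cut the corneodesmosomes that hold corneocytes together, and inhibitors such as LEKTI, the product of SPINK5, hold them back until the cells are to be shed.

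The deposited values are normalized counts, taken here to be counts divided by a factor for each library. The counts were not all whole reads. The depth, estimated as reads assigned to genes, was 13082603 to 22092275 in 21 libraries, 7010962 in WT 6C9 specimen 5532 and 2037744 in WT 6C9 specimen 5533. Specimen 5533 had a median correlation with the other libraries of 0.763. Counts over line means, the KLK5 mean and the range of KO and WT differences are given with and without it. Other values include it unless stated. CACFD1 itself had a lowest, median and highest normalized count of 286, 369.6 and 432 in WT tumours. The KO values were 167, 277 and 369.5, a log2 difference of -0.45 (SE 0.11, limma adjusted p = 0.227), so the targeted transcript was still counted in KO tumours and the ranges overlapped. Keratinocyte markers were high in every tumour: the summed level of 8 epithelial genes, among them KRT5, KRT14 and TP63, ran from 549808 to 1260600 in WT tumours and from 859017 to 1214240 in KO tumours.

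Promoter sequence is shown for the 3 members with the highest RNA level per length, because the members are found below to vary together between tumours. They are RefSeq sequence of GRCh38.p14, minus strand, 5′ to 3′, and each ends just before the first base that GENCODE 29 places in an exon. Capitals mark a GC box (GGGCGG, or CCGCCC on the other strand), the binding sequence of SP1 and related factors.
KLK5, chr19:50953094-50953288: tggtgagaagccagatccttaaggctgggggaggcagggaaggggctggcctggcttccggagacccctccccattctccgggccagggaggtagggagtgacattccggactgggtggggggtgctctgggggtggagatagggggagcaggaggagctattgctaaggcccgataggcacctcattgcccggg
KLK6, chr19:50969674-50969841: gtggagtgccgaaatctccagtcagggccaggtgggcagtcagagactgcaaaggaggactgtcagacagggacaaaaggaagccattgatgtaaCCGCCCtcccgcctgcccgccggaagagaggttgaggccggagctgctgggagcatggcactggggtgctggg
KLK7, chr19:50984100-50984314: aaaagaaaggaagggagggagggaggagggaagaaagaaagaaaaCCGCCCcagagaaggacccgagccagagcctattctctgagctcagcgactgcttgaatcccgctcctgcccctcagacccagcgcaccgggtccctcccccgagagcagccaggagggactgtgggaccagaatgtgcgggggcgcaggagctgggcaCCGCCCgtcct
RefSeq gave a promoter for 9 of the 10 members, KLK8 being the exception. Each window searched was the 250 bases before the gene's RefSeq start furthest upstream. GENCODE 29 places 22 to 228 of these bases in an exon. RefSeq gives 3 starts for KLK7 and KLK14 and 2 for KLK10, KLK11 and KLK13, and the windows of the other starts were not searched. A GC box on either strand was present in 4 of 9 (KLK6, KLK7, KLK9 and KLK13), those of KLK13 only within its exonic bases, against 42.2% of 27326 promoters of the same length. Also searched on both strands were the TATA box TATAAA, the AP-1 site TGANTCA and the Grainyhead-like site AACCNGTT. The last motifs were AGGTCA, which is only part of a retinoid receptor element, and the C/EBP site TTGCNNAA. Some of the motifs can share short runs of letters, such as TCA in AGGTCA and TGANTCA, so the searches are not fully separate. None of the 9 windows held any of the 5. Over all promoters the shares that held each of them, in this order, were 11.2%, 6.57%, 1.5%, 12.2% and 9.12%. The GC content of the 9 windows ran from 52.4% (KLK14) to 66.8% (KLK6), beside a median of 57.6% over all promoters.

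The members differed in level by more than 3 orders of magnitude. Per kb of exon, the mean normalized count over the 23 tumours was 2912 for KLK5, 1653 for KLK7 and 1258 for KLK6. It was 594 for KLK9, 470.0 for KLK10, 438 for KLK8 and 299 for KLK11. KLK12 stood at 18.7, KLK13 at 2.82 and KLK14 at 1.14. Read down this order, KLK5 lay above KLK7 in 21 of 23 tumours, KLK7 above KLK6 in 20, KLK6 above KLK9 in 21 and KLK9 above KLK10 in 17. KLK10 lay above KLK8 in only 12 of 23, so those neighbours did not differ beyond their spread. KLK8 exceeded KLK11 in 22 tumours, and KLK11 exceeded KLK12, and KLK12 exceeded KLK13, in all 23. KLK13 lay above KLK14 in 16. The low levels of KLK13 and KLK14 amounted to a few reads in most libraries.

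KO tumours had lower values of every tested kallikrein than WT tumours, with log2 differences from -2.20 to -1.17, but the spread within and between lines was wide and no member passed the test across all genes. Of the 10 members, 8 had a mean of at least 10 and were tested with limma on log2(value + 1), with the line as a random block and Benjamini-Hochberg adjustment over 16063 genes. The correlation within lines that the block used, shared by all genes, was only 0.0077. The block therefore changed the fit little, and these limma p-values treat tumours of a line almost as independent. At adjusted p under 0.05, 0 of the 8 were called, where 0.00623% of all genes were. All 8 had an unadjusted p under 0.05 in the direction of lower in KO, where 6.63% of all genes did. The 8 vary together between tumours, so counts of members here and below are not counts of separate observations. The members were also chosen with earlier results of these data known. The median log2 difference of the 8 was -1.52, beside 0.03 over all genes tested, of which 45.8% were lower in KO tumours. Without specimen 5533 the differences of the 8 ran from -1.94 (KLK12) to -1.01 (KLK8). In bulk tumours, fewer cells that make kallikreins and less kallikrein RNA per cell cannot be told apart.

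KLK5 (ENSG00000167754, positions 50943303 to 50953093), the trypsin-like protease that starts the cascade, had a lowest, median and highest normalized count of 1315, 7045 and 14552 in WT tumours. In KO tumours these were 385, 1963 and 5536. No KO tumour reached the WT median, although low WT tumours reached into the KO range. The group means were 6913 ± 3636 (SD, n = 12) and 2523 ± 1720.0 (SD, n = 11), a log2 difference of -1.54 (SE 0.43, limma adjusted p = 0.227). Without specimen 5533, the highest, the WT mean was 6219 ± 2860 (SD, n = 11) and the log2 difference -1.40.

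KLK7 (ENSG00000169035, positions 50976468 to 50984099), the chymotrypsin-like enzyme that KLK5 activates and that cuts corneodesmosin and desmocollin 1, ran from 1164 through a median of 6301 to 8246 in WT tumours. KO tumours ran from 315 through 2109 to 4573. As for KLK5, all 11 KO tumours were below the WT median. The means were 5561 ± 2231 (SD, n = 12) and 2344 ± 1439 (SD, n = 11), with a log2 difference of -1.41 (SE 0.40, limma adjusted p = 0.227).

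KLK14 (ENSG00000129437, positions 51077495 to 51084245), a trypsin-like protease that KLK5 also activates, was close to absent from these tumours. It was listed at 0 in 4 of 12 WT and 7 of 11 KO tumours, with highest values of 11.7 and 2.32. Its mean of 1.35 kept it out of the test. KLK13 (ENSG00000167759, positions 51055626 to 51065114), another trypsin-like member, had a mean of 5.67 and was not tested either. Its values were 9.76 ± 9.43 (SD, n = 12) in WT tumours, with 1 at 0, and 1.20 ± 1.36 (SD, n = 11) in KO tumours, with 4 at 0. With no filter on low values, the log2 difference was -1.97 for KLK13 (limma adjusted p = 0.275) and -0.63 for KLK14 (unadjusted p = 0.117).

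KLK6 (ENSG00000167755, positions 50958631 to 50969673), a trypsin-like enzyme also known from the nervous system, had the widest span of the abundant members. WT tumours ran from 402 through a median of 4122 to 6611, and KO tumours from 43.7 through 1001 to 4349. The highest KO value, in line 2F7, lay above the WT median, and the other 10 were lower than it. The means were 3698 ± 2050.1 (SD, n = 12) and 1164 ± 1171 (SD, n = 11), with a log2 difference of -1.96 (SE 0.61, limma adjusted p = 0.241).

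KLK8 (ENSG00000129455, positions 50996007 to 51002711), or neuropsin, a trypsin-like protease of skin and brain, ran from 391 through 1014 to 2964 in WT tumours and from 150.5 through 444 to 869 in KO tumours. It had the smallest difference of the 8, a log2 value of -1.17 (SE 0.31, limma adjusted p = 0.227). KLK9 (ENSG00000213022, positions 51002508 to 51009634), a chymotrypsin-like member, ran from 127 through 897 to 1192 and from 45.2 through 215 to 495, with a log2 difference of -1.61 (SE 0.44, limma adjusted p = 0.227). For both genes the WT median exceeded every KO tumour. The table's KLK8 and KLK9 overlap by 204 bases, and an unnamed minus-strand gene (ENSG00000269741) covers both. That gene was listed at 776 in specimen 5533 and at no more than 13.6 in any other tumour, so the KLK8 and KLK9 values are uncertain, above all there. Unnamed plus-strand genes with means of 1.52 and 0.601 also overlap KLK5 to KLK9, and the sources used here do not say whether counting used strand.

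KLK10 (ENSG00000129451, positions 51012739 to 51020175), first described as a gene that normal epithelial cells express and many breast cancer lines lack, had the smallest p of the 8. Its values were 746, 2816 and 4376 (lowest, median, highest) in WT tumours and 197, 826 and 2104 in KO tumours, and all KO tumours were below the WT median. The log2 difference was -1.51 (SE 0.37, unadjusted p = 0.000414, limma adjusted p = 0.227), the 21st smallest p among 16063 genes.

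KLK11 (ENSG00000167757, positions 51022216 to 51028039), a trypsin-like member found in many glandular and lining epithelia, ran from 429 through 1313 to 2686 in WT tumours and from 122 through 428 to 1045 in KO tumours. Its log2 difference was -1.33 (SE 0.33, limma adjusted p = 0.227), with all KO tumours below the WT median. KLK12 (ENSG00000186474, positions 51029092 to 51035230), a trypsin-like protease and the least abundant tested member, ran from 3.59 through 36.7 to 201 and from 1.56 through 4.45 to 57.3. It had the largest log2 difference, -2.20 (SE 0.60, limma adjusted p = 0.227), with 10 of 11 KO tumours below the WT median.

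**Figure D1:**
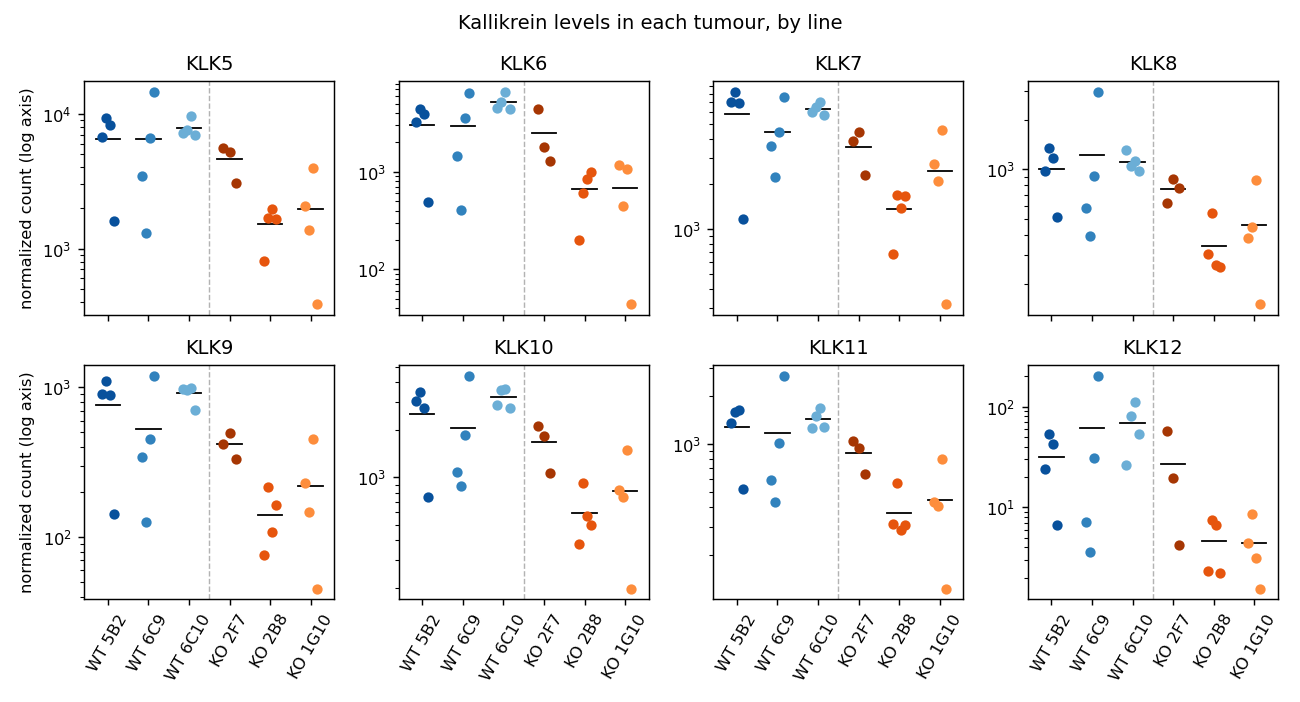
Normalized counts (log axis) of the 8 tested kallikreins, 1 point a tumour, in the 3 WT lines (blue) and the 3 KO lines (orange), with a bar at each line's mean. KO lines 2B8 and 1G10 sit lowest in every panel. The bar of KO line 2F7 lies between theirs and those of the WT lines. Tumours of 5B2 and 6C9 overlap the KO range in every panel, and those of 6C10 in the panels of KLK6 and KLK12.

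Counted over the 8 tested members, 6 had all 11 KO tumours below the WT median, a pattern that 2.76% of all tested genes showed. As the members vary together, this count and those over line means do not stand for separate observations. The ranges of WT and KO tumours overlapped for all 8. When the 23 tumours were permuted between genotypes, two-sided, the p of single members ran from 0.00107 (KLK10) to 0.00526 (KLK6), but this treats tumours of a line as independent. Over line means of the log2 values, the 3 KO lines lay below the 3 WT lines for 6 of 8 members, all but KLK6 and KLK9, where 8.87% of all genes did. The two-sided exact permutation test over the 6 line means gave p = 0.1 for those 6, the smallest it can give, and p = 0.2 for the other 2. Without specimen 5533 the line means of 0 of 8 members were apart, where 7.28% of genes were, and the mean of WT line 6C9 then lay below that of KO line 2F7 for each of them. Without both specimens 5532 and 5533 it was again 0 of 8 (5.54% of genes), and without KO specimen 5549, the lowest tumour, 6 of 8 (8.17%). The count with all KO tumours below the WT median was 6 in each of these settings.

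With weights for library quality, a limma option, all 8 members passed at adjusted p from 0.0103 to 0.0160. In that fit 3.01% of all genes were called lower. Specimen 5533 had a weight of 0.0287. Among the other low weights were 0.771 for WT specimen 5529, 0.677 for WT specimen 5531 and 0.452 for KO specimen 5549. Tumours of WT line 6C10 had weights from 1.82 to 1.94, and the highest was 2.04 (WT 5B2 specimen 5527). No other alternative fit of KO against WT called any member, and leaving out specimen 5533 called 0. Which weights the calls rest on was not tested.

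The KO lines differed in how far they lay from the WT lines. In a fit with a term for each line, and against the average of the 3 WT lines, line 2F7 had log2 differences from -0.83 (KLK12) to -0.36 (KLK5), with limma adjusted p from 0.950 to 0.951. Line 2B8 had differences from -2.67 (KLK12) to -1.59 (KLK8), and line 1G10 from -2.82 (KLK6) to -1.34 (KLK8). No member was called in any of the 3 comparisons (background 0%), with limma adjusted p from 0.275 to 0.443 for 2B8 and from 0.207 to 0.317 for 1G10. These 3 comparisons share their WT tumours and are not independent. Without WT line 6C9, 6 members were called lower in 2B8, where 0.59% of genes were, and 7 in 1G10, where 1.59% were. KLK6 and KLK7 were the members not called in 2B8 and KLK7 the one not called in 1G10. Without WT 5B2 specimen 5529 alone, 1 was called in 2B8 (KLK10, limma adjusted p = 0.0478), where 0.0747% of genes were.

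Line by line, KLK5 shows this spread. In line 2F7 the normalized count averaged 4611 ± 1341 (SD, n = 3), in 2B8 1528 ± 496 (SD, n = 4) and in 1G10 1953 ± 1519 (SD, n = 4). Of the WT lines, 5B2 averaged 6446 ± 3412, 6C9 6467 ± 5802 and 6C10 7827 ± 1228 (SD, n = 4 each), so for this gene 6C10 was the most even WT line and 6C9 the most scattered. KLK6 averaged 2475 ± 1644 in 2F7 (SD, n = 3), against 661 ± 349 in 2B8 and 684 ± 535 in 1G10 (SD, n = 4 each). Its 3 tumours in 2F7 ran from 1279 to 4349, so the line's mean rests largely on its highest tumour. KLK10 was more even in 2F7, at 1665 ± 535 (SD, n = 3), and stood at 592 ± 229.8 in 2B8 and 818 ± 533 in 1G10 (SD, n = 4 each). KLK12 averaged 27.0 ± 27.3 in 2F7 (SD, n = 3) but 4.67 ± 2.79 in 2B8 and 4.44 ± 3.00 in 1G10 (SD, n = 4 each), where it amounted to a few reads.

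Among the KO lines the F test in limma gave an unadjusted p from 0.0484 to 0.150 and an adjusted p of 1 for all 8 members, with 0% of all genes called. KLK10 alone had an unadjusted p under 0.05 there, as 2.22% of genes did. Among the WT lines the unadjusted p ran from 0.229 to 0.809, the adjusted p was at least 0.541, and 0.00623% of genes were called, with 0 members and 10.3% of genes at an unadjusted p under 0.05. Of the sum of squares of the log2 values, genotype held 30.4% to 41.4%, lines within a genotype 13.4% to 21.2% and tumours within a line 39.3% to 52.0% over the 8 members.

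**Figure D2:**
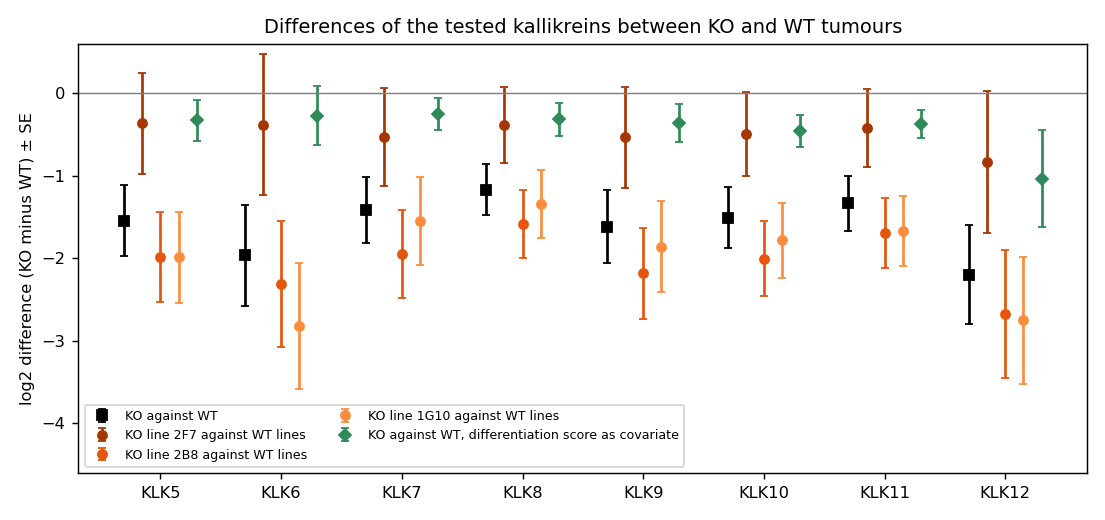
Log2 difference (KO minus WT) ± SE of each tested kallikrein for all KO tumours (black squares), for each KO line against the WT lines (circles) and for all KO tumours with the differentiation score as a covariate (green diamonds). Line 2F7 lies near -0.36 to -0.83 and the other KO lines below -1.3, and the covariate brings the overall difference closer to 0 for every gene.

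The 8 tested kallikreins rose and fell together from tumour to tumour. Over the 28 pairs of genes and 23 tumours, Pearson's r of the log2 values ran from 0.793 (KLK7 with KLK12) to 0.985 (KLK10 with KLK11), with a median of 0.939, and Spearman's rho from 0.783 to 0.976. Permutation p for r was 1e-05 for every pair, the smallest that 100000 resamples give, and adjusted p over the 28 pairs was at most 2e-05 for rho. These permutations moved tumours across genotypes and lines and so treat tumours of a line as independent. Their p-values do not separate covariation within lines from shifts shared by a line or genotype. Without the 2 tumours farthest from the median of the first gene, r ran from 0.760 to 0.982. Within WT tumours r ran from 0.790 to 0.981 with a median of 0.928. Within KO tumours it ran from 0.527 (KLK8 with KLK12) to 0.981 with a median of 0.910. After line means were removed it was 0.896, with a range from 0.602 to 0.971. All pairs share the same libraries and the same scaling factors.

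Single tumours set the extremes. KO 1G10 specimen 5549 was the lowest of the 23 for all 8 members, with 43.7 for KLK6, 385 for KLK5 and 197 for KLK10. WT 6C9 specimen 5533, the library with the fewest reads, was the highest for KLK5, KLK8, KLK9, KLK10, KLK11 and KLK12. The highest for KLK6 was WT 6C10 specimen 5536 and for KLK7 WT 5B2 specimen 5527. Ranked by the mean log2 value of the 8 genes, called the kallikrein score below, WT 5B2 specimen 5529 was 18th and WT 6C9 specimen 5531 was 19th of 23, among the KO tumours of 2B8 and 1G10. The highest KO tumour was 2F7 specimen 5538, in 9th place. The fold between the highest and lowest tumour ran from 19.7 for KLK8 to 151 for KLK6.

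The makeup of the group is given beside its sum. Taken as a share of the summed level per kb of exon of the 8 genes, KLK5 made up 37.6% in WT and 37.2% in KO tumours on average, and KLK7 22.3% and 24.0%. KLK6 made up 15.9% and 12.6%, and KLK8 5.89% and 7.76%. No share differed between genotypes with an unadjusted permutation p under 0.05 over the 8 tested, the range being 0.0695 to 0.873, which does not show that the shares are equal.

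The kallikrein score varied together with the mean of a list of suprabasal and granular genes, within each genotype as well as over all tumours. The differentiation score, the mean log2 value of 10 suprabasal and granular genes such as KRT10, LORICRIN and FLG2, had r = 0.936 and rho = 0.958 with it over 23 tumours. The r was 0.969 within WT and 0.917 within KO tumours, and 0.956 without the 2 tumours farthest from the median differentiation score. Single genes of the list differed in this: LORICRIN had r = 0.975 and FLG2 0.946, but TGM3 had 0.481, HRNR 0.482 and SPRR2G 0.014. All 10 genes of this list had lower values in KO tumours, where 45.8% of all genes tested did. Their median log2 difference was -1.02 with 0 called, and SPRR2G had -0.15 and HRNR -0.13. The summed level of the list ran from 166666 to 661720.0 in WT tumours and from 26031 to 386549 in KO tumours. The basal score, from 8 genes such as KRT5, KRT14 and ITGA6, had r = -0.784 with the kallikrein score. Its genes were higher in KO tumours for 7 of 8, with a median log2 difference of 0.37 and 0 called.

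When the differentiation score was entered as a covariate, the log2 difference between KO and WT shrank for every member. It was -0.33 for KLK5 (SE 0.24), -0.27 for KLK6 (SE 0.36), -0.25 for KLK7 (SE 0.20) and -0.32 for KLK8 (SE 0.20). For KLK9 it was -0.36 (SE 0.23), for KLK10 -0.45 (SE 0.19), for KLK11 -0.37 (SE 0.17) and for KLK12 -1.03 (SE 0.59), with a limma adjusted p of 0.999 for all 8. Both scores come from the same libraries.

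**Figure D3:**
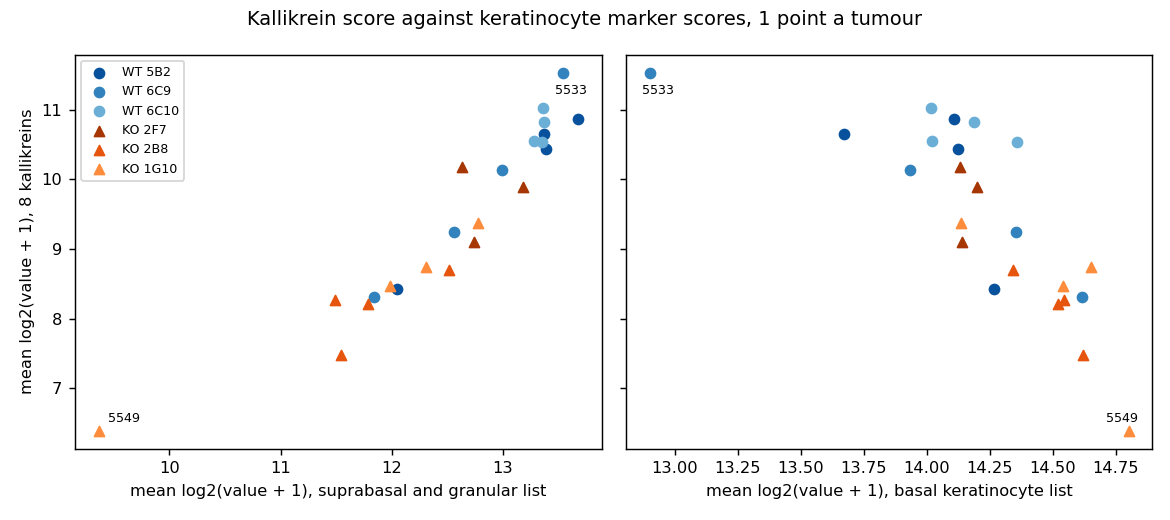
Kallikrein score (mean log2 value of the 8 tested genes) against the score of suprabasal and granular keratinocyte genes (left) and of basal keratinocyte genes (right), 1 point a tumour, with WT lines as blue circles and KO lines as orange triangles. The points rise on the left (r = 0.936) and fall on the right (r = -0.784), KO and WT tumours lie along the same band, and specimens 5533 and 5549 stand at the ends.

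Of the marker lists of other cells, only that of fibroblasts was set against the kallikrein score. The fibroblast score had r = -0.675 and rho = -0.618 with it, and r = -0.556 without the 2 tumours farthest from the median. The summed level of its 7 genes ran from 2348 to 16752 in WT and from 3818 to 28193 in KO tumours. Of its 6 tested genes 5 were higher and 1 lower in KO tumours, where 45.8% of all genes tested were lower. Their median log2 difference was 0.35, with 0 called. With that score as a covariate, the differences ran from -1.86 (KLK12) to -0.93 (KLK8). Endothelial genes summed to between 80.2 and 238 in all tumours, with PECAM1 at a median of 0, and myeloid genes to between 416 and 652. Muscle genes ranged from 39.8 to 11537, and 4 adipocyte genes from 2.37 to 63.9. The sources used here do not say how reads of mouse cells were treated, and the part of these cells in the kallikrein differences was not tested. CACFD1 had r = 0.814 with the score, 0.619 within WT and 0.752 within KO tumours. The log2 estimated reads of a library had r = -0.356, or 0.03 without the 2 tumours farthest from the median depth. Within WT tumours the r of depth was -0.331 and within KO tumours -0.454. Of these relations none was given a p, since the genes were chosen with results known.

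Inhibitors of kallikreins and related proteases had smaller differences in the median than the kallikreins themselves. Of 13 listed protease inhibitors of the epidermis, 12 were in the table and 11 were tested. In KO tumours 9 of the 11 were lower and 2 higher, where 45.8% of all genes tested were lower. Their median log2 difference was -0.53, with 0 called. SPINK5, which encodes LEKTI, the main inhibitor of KLK5 and KLK7, stood at 11320 ± 6022 and 6028 ± 2575 in WT and KO tumours (SD, n = 12 and 11), a log2 difference of -0.92 (limma adjusted p = 0.232). Its r with the kallikrein score was 0.931, so tumours with more protease RNA also had more of this inhibitor's RNA. PI3, or elafin, an elastase inhibitor, stood at 21701 ± 12179.6 and 12741 ± 6261, and SERPINB13, an inhibitor of cathepsins, at 3163 ± 915 and 2114 ± 922 (SD, n = 12 and 11). Their log2 differences were -0.83 and -0.64.

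Of 10 listed proteases that can act upstream of kallikreins or beside them, 9 were tested. In KO tumours 7 were lower and 2 higher, where 45.8% of all genes tested were lower. The median log2 difference of the 9 was -0.31, with 0 called. CTSD, the lysosomal aspartic protease cathepsin D, had means of 5319 ± 909 and 4044 ± 599 (SD, n = 12 and 11), a log2 difference of -0.39 (SE 0.10, limma adjusted p = 0.227) and r = 0.940 with the score. PRSS8, the membrane protease prostasin, stood at 1934 ± 404 and 1510.3 ± 398, with a log2 difference of -0.38. PLAU, or urokinase, stood at 5343 ± 1579 and 5693 ± 1297, with 0.11.

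Known targets of kallikreins had differences of both signs. Of 7 listed, 6 were tested, and 3 were lower and 3 higher in KO tumours, where 45.8% of all genes tested were lower. Their median log2 difference was -0.12, with 0 called. FLG, filaggrin, the source of the natural moisturizing factor, stood at 89015 ± 43904 and 48267 ± 44178 (SD, n = 12 and 11), a log2 difference of -1.20 (limma adjusted p = 0.339). CDSN, corneodesmosin, the adhesive protein that KLK5 and KLK7 cut, stood at 56673 ± 15023 and 42185 ± 14076, with -0.47.

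The nearest tested genes on either side of the locus had differences closer to 0. On the KLK1 side the nearest tested gene, C19orf48, 14.2 kb beyond KLK1, had a log2 difference of -0.14 (SE 0.10, limma adjusted p = 0.536). On the KLK14 side CTU1, 13.4 kb beyond KLK14, had -0.06 (SE 0.09, limma adjusted p = 0.759). The next tested genes, CLEC11A, C19orf81, VSIG10L and ETFB, had differences from -0.28 to -0.22. With the kallikrein score C19orf48 had r = 0.319 and CTU1 r = 0.041, and the next tested genes had r from 0.310 (CLEC11A) to 0.562 (ETFB). The other kallikreins of the locus were close to absent. KLK1, which releases kinins, averaged 8.29 ± 5.79 in WT and 3.10 ± 2.38 in KO tumours, and KLK4, an enamel protease, 12.8 ± 7.55 and 5.57 ± 3.84 (SD, n = 12 and 11). KLK2 and KLK3, the prostate kallikreins, had means of 2.60 and 0.855 over all tumours. None of the 4 was tested, and KLK15 and KLKP1 were not analysed here.

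**Figure D4:**
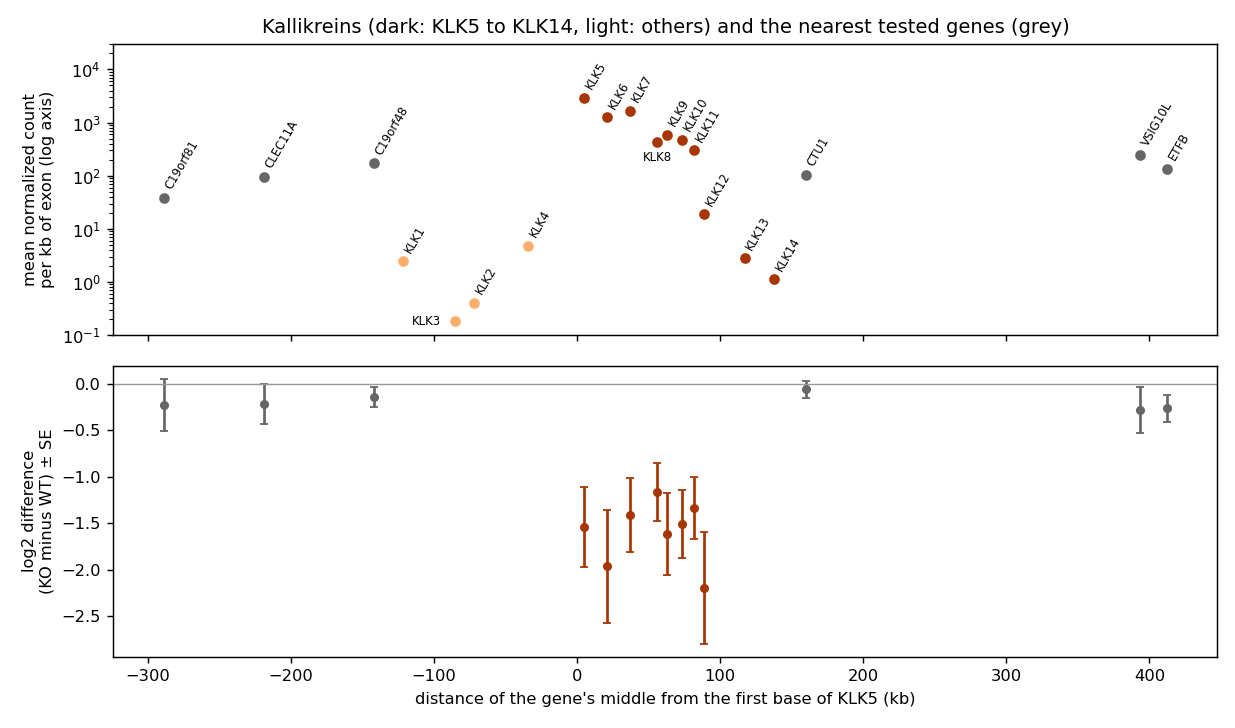
Top, mean normalized count per kb of exon (log axis) and, bottom, log2 difference (KO minus WT) ± SE against the distance in kb from the first base of KLK5, for the 10 epidermal kallikreins (dark), the other kallikreins (light) and the nearest tested genes (grey). The tested kallikreins lie between -2.20 and -1.17 while the grey genes lie between -0.28 and -0.06, and levels drop from KLK11 to KLK14.

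Outside the kallikreins, the 5 tested genes whose log2 values were most like the kallikrein score over the 23 tumours, by Pearson's r, lay on chromosomes other than 19. ACP3, an acid phosphatase, had r = 0.985 and AQP5, a water channel, r = 0.977. LORICRIN, the main protein of the cornified envelope, had r = 0.975, CARD18, a caspase-1 inhibitor, r = 0.974 and the antisense transcript UNC5B-AS1 r = 0.970. Their log2 differences between KO and WT were -1.41, -1.94, -2.18, -2.90 and -1.66 in that order, with limma adjusted p from 0.227 to 0.228. Within WT tumours ACP3 had r = 0.982 and within KO tumours 0.983.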

How the data were processed

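The submitters' processing notes name the tools STAR and DESeq2 and the build hg38, without versions or roles. The authors deposited 1 table of normalized counts, a signal per gene and tumour (read counts divided by a factor for each library). The counting program, its use of strand and the handling of mouse reads are not given in the sources used here. Estimated reads are each library's total divided by its smallest repeated step, and 70.6% to 83.8% of low values were whole multiples of it within 0.02 reads, so whole reads could not be recovered and no count model was used. Depth limits precision most in WT 6C9 specimen 5533.

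Values were analysed as log2(value + 1), which understates differences of low genes, for 16063 genes with a mean of at least 10, with limma 3.58.1 in R 4.3.3. Line was a random block (consensus correlation 0.0077), the variance prior was trended, and p-values were adjusted by Benjamini-Hochberg with calls at 0.05. Line contrasts and F tests used a term per line. Exonic length is the union of GENCODE 29 exons, and promoters are those of the RefSeq start furthest upstream in each gene. Gene ends are those of the table. Scripts were tested on simulated data. Alternatives were other pseudocounts, filters, scalings, covariates, weights, and leaving out tumours, lines or both libraries of low depth. Named genes are all members, CACFD1, the other kallikreins, up to 3 tested neighbours on each side, the 5 genes most like the score and, in the inhibitor, activator and target lists, the 2 genes with the smallest p and the 2 with the highest mean. The members and lists were chosen with earlier results of these data known, and the motifs and the printed promoters after the data were seen.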

Additional observations from a re-analysis of the deposited data

Results flagged for a closer look

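Within each line of 4 tumours, the gap between the most extreme tumour and its nearest neighbour was set against the whole range of the line, and compared with the critical value of Dixon for 4 samples. Over the 10 members and the lines of 4 tumours, 5 of 50 groups passed the limit, and chance passes about 1 in 20. KLK9 in WT 6C10 specimen 5537 was low at a normalized count of 711, where the next was 958. KLK11 in KO 2B8 specimen 5543 was high at 568, where the next was 313. KLK12 in WT 6C9 specimen 5533 was high at 201, where the next was 31.2, and this is the library with the fewest reads. KLK14 was high in WT 6C9 specimen 5532, at 11.7 where the next was 0.790, and in KO 1G10 specimen 5546, at 1.78 where the other 3 tumours were listed at 0. Specimen 5532 is 1 of the 2 libraries of low depth, and KLK14 was at or near 0 in most tumours.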

How the results depend on the processing

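Under the alternatives tried, 39 for each tested kallikrein and 38 for KLK12, no difference between KO and WT changed sign. Library quality weights moved the number called from 0 to 8, and no other setting moved it. With the differentiation score as a covariate the differences shrank to between -1.03 and -0.25. Leaving out line 2F7 gave the largest, from -2.71 (KLK12) to -1.46 (KLK8), with limma adjusted p from 0.0722 to 0.0862. Leaving out 1 tumour at a time gave 0 calls throughout, with adjusted p of 0.0893 or more. For KO line 2B8 against the WT lines, 6 members were called without line 6C9 (where 0.59% of genes were lower), and the range over single tumours left out was 0 to 1, the 1 without WT 5B2 specimen 5529 (0.0747%). For KO line 1G10, 7 were called without line 6C9 (1.59%). Why these calls appear was not tested. Among the lines of a genotype, 0 members were called under every alternative run. The median correlation between members was 0.939. It was 0.896 after line means were removed, and ran from 0.910 (within KO tumours) to 0.938 under its other alternatives. Without both libraries of low depth, KLK10 had -1.39 and KLK8 -0.98. No paired analysis was possible because specimen numbers are not shared between groups. Depth limits KLK13 and KLK14, which were a few reads in most libraries.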
